A study of Mus musculus with 8 samples.

Results

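The complement components and regulators described here are 9 genes, C3, C4b, C1ra, Cfb, Cfd, Serping1, Cd55, Cd59a and C3ar1, found by symbol among the 31276 genes of the deposited table. They were chosen by their values in all 8 libraries, so these are given as a description and carry no test. RNA was sequenced from C3H10T1/2 cells, a mouse embryonic mesenchymal line with several possible fates, kept in DMEM with fetal bovine serum and taken at passages 10 to 15. Each of the 8 libraries comes from cells that stably express 1 histone H3 transgene carrying a FLAG-HA tag. The transgenes were H3.1 K36M, H3.3 K36M, H3.3 K36I, H3.1 K36R, H3.3 K36A, H3.3 K36L, H3.3 K36R and H3.3 WT, where WT is wild type, K36M has methionine in place of the lysine that the number names and the other names give their replacing residue likewise. K36M and K36I are described in the literature as inhibiting the enzymes that methylate this lysine, so the 3 libraries with them were set against the other 5 (the class comparison). The 2 H3.1 libraries were set against the 6 H3.3 libraries with class as a term (the histone comparison). No transgene had a second library, so the spread is that between lines with different transgenes. The histone of the transgene and any other difference between these lines or their preparation cannot be told apart.

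Complement is a set of plasma and membrane proteins that marks microbes, immune complexes and damaged cells for removal. Its classical pathway begins with the proteases C1r and C1s, which cleave C4 and C2, its lectin pathway with collectins, ficolins and MASP proteases, and its alternative pathway runs through factors B and D. All of them meet at C3, and cells limit the cascade with inhibitors such as the C1 inhibitor, CD55 and CD59. The liver makes most of the plasma components, and fibroblasts and other mesenchymal cells make several of them locally, often more under inflammatory cytokines.

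The H3.1 K36M and H3.1 K36R libraries held 45448249 and 53199065 reads, and the H3.3 libraries 61139941 to 68020958. Values below are normalised reads, the reads of a gene divided by the size factor of its library, and intervals cover counting error at the 95% level only. The 8 mesenchymal markers checked, Col1a1, Col1a2, Pdgfra, Pdgfrb, Thy1, Vim, Prrx1 and Twist1, all passed the filter on low values. This filter asks for a mean at least 1 above the lowest value on the deposited log2 scale. For a gene with equal values in all libraries it stands at about 31.0 normalised reads. None of 5 hepatocyte markers passed it, and Alb, the defining one, had 0 reads in every library but H3.1 K36M, where it had 2.63 normalised reads. Serpina1a, another of them, had 10.5, 26.7 and 17.9 in H3.1 K36M, H3.3 K36M and H3.3 K36I, against at most 2.19 in the other lines, and was called higher by class with no filter (adjusted p = 0.00248, limma). Of 10 leukocyte and macrophage markers only Cd68, Cd14 and Lyz2 passed, and the pan-leukocyte gene Ptprc had 0 to 7.89 normalised reads. Of the 9 complement genes 7 passed the filter, and Cfd and C3ar1 did not.

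The stretches around the RefSeq starts of 3 members are shown because the results turn on these genes: C3 stands apart in H3.1 lines, C3ar1 in K36M and K36I lines and C1ra in both. Each runs 5′ to 3′ from 250 bases before to 50 bases after the RefSeq transcription start (GRCm38.p6), at chr17:57228087-57228386 on the minus strand for C3, chr6:124512371-124512670 on the plus strand for C1ra and chr6:122856108-122856407 on the minus strand for C3ar1. Capitals mark matches to 5 short motifs, chosen with the sequences in view and searched on both strands.
C3: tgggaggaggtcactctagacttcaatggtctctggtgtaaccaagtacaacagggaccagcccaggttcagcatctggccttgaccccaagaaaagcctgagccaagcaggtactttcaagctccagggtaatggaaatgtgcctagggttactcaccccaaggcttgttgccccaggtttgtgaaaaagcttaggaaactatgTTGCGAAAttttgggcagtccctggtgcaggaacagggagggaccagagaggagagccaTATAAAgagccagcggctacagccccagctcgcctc
C1ra: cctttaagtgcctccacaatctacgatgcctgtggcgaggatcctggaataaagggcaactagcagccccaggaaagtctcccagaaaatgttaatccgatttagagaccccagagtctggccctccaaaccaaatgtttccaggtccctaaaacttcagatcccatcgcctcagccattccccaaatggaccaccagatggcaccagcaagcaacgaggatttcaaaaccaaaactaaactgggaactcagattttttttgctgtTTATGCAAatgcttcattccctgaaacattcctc
C3ar1: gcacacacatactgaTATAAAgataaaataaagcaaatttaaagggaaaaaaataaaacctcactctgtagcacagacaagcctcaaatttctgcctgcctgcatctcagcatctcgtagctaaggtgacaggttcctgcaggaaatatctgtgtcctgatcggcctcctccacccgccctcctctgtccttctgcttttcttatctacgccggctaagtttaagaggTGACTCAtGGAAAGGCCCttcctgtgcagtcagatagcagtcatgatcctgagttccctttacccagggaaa
The motifs were TTGCNNAA, the core of C/EBP sites, TATAAA, the TATA box, TGANTCA for AP-1, GGG and TTCC with any 3 bases between them for NF-kB, and a GAAA repeated after any pair of bases for IRF factors. They occur in 10.8%, 13.6%, 7.81%, 5.56% and 3.44% of the 32851 promoters of the same length. The capitals in C3 are a C/EBP match that starts 45 bases before the transcription start and a TATAAA 15 bases after it. C1ra has a C/EBP match on the reverse strand 17 bases after the start. The GENCODE annotation, used for gene positions below, starts C1ra earlier, at 124512405. Most of the C1ra window, with this match, lies inside that gene. C3ar1 has a TATAAA 235 bases before, an AP-1 match 22 bases before and a reverse-strand NF-kB match 14 bases before the start. Of the 6 members in the promoter table, Cd59a has an IRF match 187 bases before the start, and these letters were not found in the windows of Cfd and Cd55. C4b, Cfb and Serping1 were not matched. A match describes letters and not bound factors.

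C3, which lies at chr17:57203970-57228136 on the minus strand (GRCm38, GENCODE M21) and encodes the protein at which all complement pathways meet, had 16230 and 25406 normalised reads in H3.1 K36M and H3.1 K36R. In the H3.3 libraries it had 47.7 in K36M, 18.7 in K36I, 92.0 in K36A, 70.2 in K36L, 127 in K36R and 44.6 in WT. Both H3.1 libraries thus lie at least 2 orders of magnitude above all 6 H3.3 libraries, and the groups do not overlap. With the same substitution on both sides, C3 was 340-fold higher in H3.1 K36M than in H3.3 K36M (258 to 459) and 199.7-fold higher in H3.1 K36R than in H3.3 K36R (168 to 238). On the deposited log2 scale the fitted histone difference was 7.09 (SE 0.20), the largest of the 14215 genes past the filter, ahead of Serpina3g at 5.08. Per kilobase of exon, C3 reached 3156 and 4940 normalised reads in H3.1 K36M and H3.1 K36R, above 93.6% and 96.6% of 12407 genes. Those are the genes past the filter with an annotated length, plus members and a few other complement genes below it. In the H3.3 libraries C3 had 3.64 to 24.7 per kilobase, above 0.870% to 8.83% of these mostly filtered genes.

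Within each histone C3 was lower with K36M than with K36R. The ratio of H3.1 K36M to H3.1 K36R was 0.639 (0.625 to 0.653), and that of H3.3 K36M to H3.3 K36R was 0.375 (0.265 to 0.523). Among H3.3 lines, neighbours in the order K36R, K36A, K36L, K36M and WT overlap in their counting intervals, and K36I lies below WT beyond them. The class difference was 0.37 (SE 2.14) without a histone term, as each class holds 1 H3.1 line beside H3.3 lines, and -0.58 (SE 0.18) with that term. Without the H3.1 K36M library it was -1.98, and without H3.1 K36R it was 1.79. In the plot of histone differences over all genes, C3 is the single gene in its bin.

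**Figure D1:**
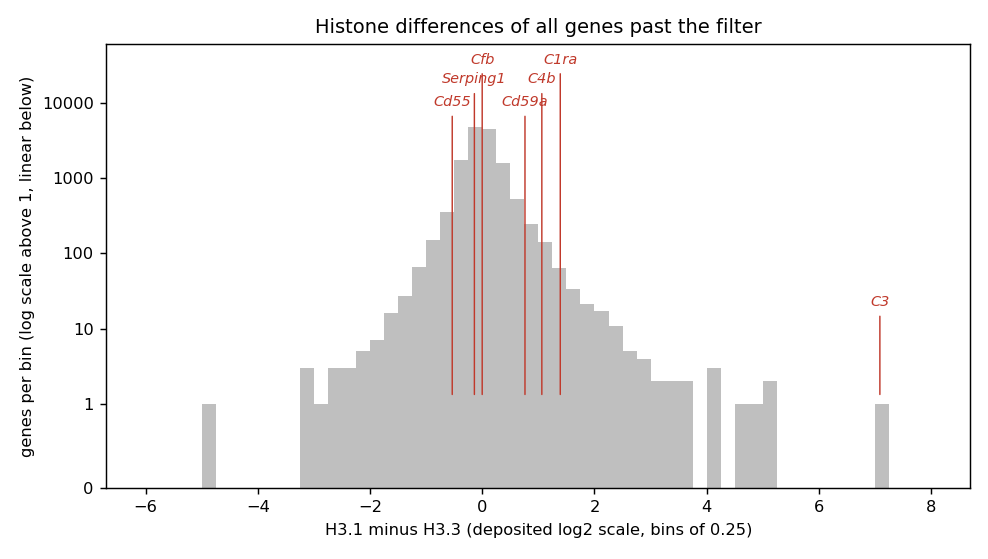
Fitted H3.1 minus H3.3 differences of the 14215 genes past the filter on the deposited log2 scale (x axis, bins of 0.25), with the number of genes per bin on the y axis, which is logarithmic above 1 and linear below. Red lines mark the 7 members past the filter: C3 stands at 7.09 and Cd55, Serping1, Cfb, Cd59a, C4b and C1ra between -0.54 and 1.39.

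By the root mean square difference of centred log2 profiles over the 8 libraries, the genes most like C3 were Serpina3g at 1.06, Cxcl5 at 1.22 and Serpina3f at 1.25. Serpina3g and Serpina3f encode serine protease inhibitors, and Cxcl5 a chemokine that attracts neutrophils. Serpina3g had 3363 to 8534 normalised reads in H3.1 lines and 19.2 to 91.9 in H3.3 lines. Cxcl5 had 10180 to 29565 in H3.1 lines and 115 to 1059 in H3.3 lines. These genes were ranked on the same 8 libraries that set the C3 profile, and in all 3 the H3.1 and H3.3 lines do not overlap.

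C4b (chr17:34728380-34743882, minus strand), the C4 gene whose product forms the classical and lectin C3 convertase, had 147 and 240.5 normalised reads in H3.1 K36M and H3.1 K36R. In the H3.3 libraries its lowest, median and highest values were 38.0, 51.1 and 61.3. It has the C3 order at the top, H3.1 K36R above H3.1 K36M above all H3.3 lines, but with far smaller gaps. C4b was 2.97-fold higher in H3.1 K36M than in H3.3 K36M (2.12 to 4.20) and 6.33-fold higher in H3.1 K36R than in H3.3 K36R (4.51 to 9.11). The fitted histone difference was 1.06 (SE 0.13) on the deposited log2 scale, which understates changes of genes with few reads, and 2.03 when fitted on logged reads with voom. The class difference was -0.05 (SE 0.34). Of the 50-base stretches of C4b, 34.6% also occur in its neighbour and near copy C4a, so the split of reads between them is uncertain. C4a had 211 to 239 normalised reads in the K36M and K36I lines, against 283 to 360.5 in the other lines, without overlap. Its class difference of -0.36 (SE 0.10) did not pass (adjusted p = 0.0509, limma) but did with histone as a term (adjusted p = 0.0253, limma), and it was not called by histone. P2rx4, Pnrc1 and Ets2, at 0.13, 0.14 and 0.14, were most like C4b in profile, and genes with a small range give small distances.

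**Figure D2:**
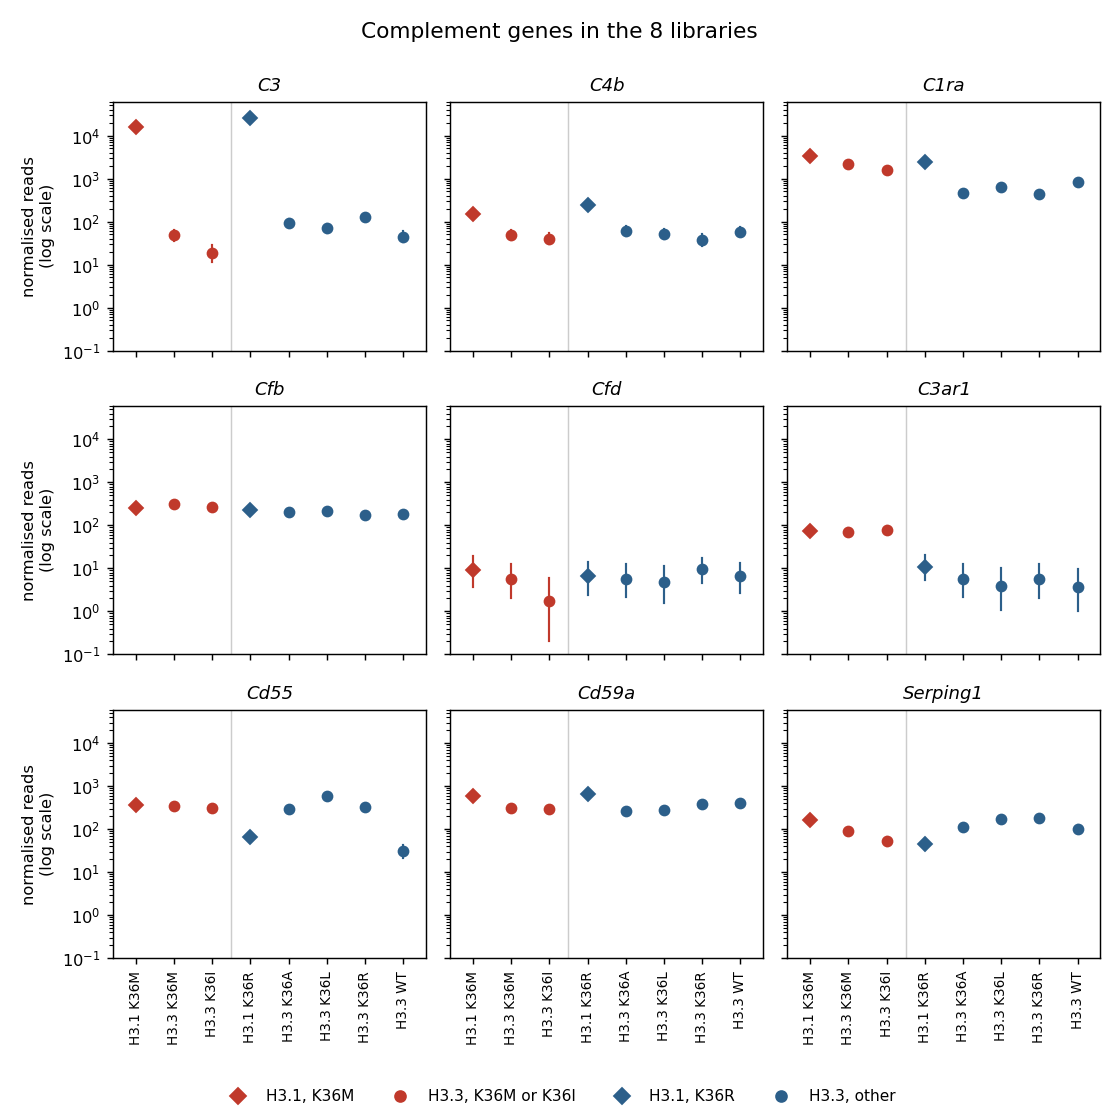
Normalised reads of the 9 complement genes (y axis, log scale) in each of the 8 libraries (x axis), K36M and K36I lines in red left of the grey line and the other lines in blue, H3.1 lines as diamonds. Bars are 95% counting intervals. C3 is high in both H3.1 lines, C3ar1 in the 3 K36M and K36I lines at 70.6 to 80.0, and Cd55 is lowest in H3.3 WT at 30.7.

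C1ra (chr6:124512405-124523443, plus strand) encodes C1r, the protease of the C1 complex that activates C1s. It had 3372 normalised reads in H3.1 K36M, 2186 in H3.3 K36M and 1572 in H3.3 K36I, against 2385 in H3.1 K36R, 452 in K36A, 637 in K36L, 426 in K36R and 843 in WT of H3.3. C1ra was therefore high in 4 lines, both with H3.1 and both H3.3 lines with K36M or K36I, and lower in the other 4. The ratio of K36M to K36R was 5.13 in H3.3 (4.63 to 5.69) and 1.41 in H3.1 (1.34 to 1.50). The ratio of H3.1 to H3.3 was 1.54 for K36M and 5.59 for K36R (5.05 to 6.20). With both terms in the fit, the histone difference was 1.39 (SE 0.29) and the class difference 1.24 (SE 0.26). Without H3.1 K36R the histone difference was 0.82, and without H3.1 K36M it was 1.86. Of the 50-base stretches of C1ra, 48.0% also occur in its near copy C1rb, which was also the gene most like it in profile at 0.17, ahead of Kng2 at 0.31 and Cd74 at 0.33. The likeness of C1rb and C1ra cannot be told apart from reads they share.

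C1ra lies in a group of 5 protease genes on chromosome 6, which run in the order C1rl, C1ra, C1s1, C1rb and C1s2 from position 124493113 to 124636085. C1s encodes the protease that cleaves C4 and C2, and in the table C1s1 is named C1s and C1s2 is named Gm5077. C1s had 7796 normalised reads in H3.1 K36M, 3480 in H3.3 K36M and 1530 in H3.3 K36I, against 2523 in H3.1 K36R, 202 in K36A, 349 in K36L, 273 in K36R and 269.5 in WT of H3.3. It was high in the same 4 lines as C1ra. In the histone comparison C1s rose by 2.29 (SE 0.33, adjusted p = 0.00956, limma with Benjamini-Hochberg adjustment over all genes past the filter), and so did Gm5077, by 1.61 (SE 0.24, adjusted p = 0.0102), and C1rb, by 1.21 (SE 0.25, adjusted p = 0.0262). None of these 3 calls held without H3.1 K36R or on the K36M and K36R libraries alone (adjusted p = 0.222, 0.166 and 0.316 there, limma). Gm5077 and C1rb also lost theirs without H3.1 K36M, and C1rb without H3.3 K36I. The K36M and K36R libraries alone leave little to estimate spread from, and 0.0844% of all genes were called by histone there. C1s also rose in the class comparison, by 2.68 (SE 0.75, adjusted p = 0.0477, limma). That call was lost without H3.1 K36M, H3.3 K36M, H3.3 K36A, H3.3 K36L, H3.3 K36R or H3.3 WT, each left out in turn. Gm5077 and C1rb were not called by class (adjusted p = 0.0648 and 0.112, limma). With histone as a term C1s, Gm5077 and C1rb were all called by class, at 2.37, 1.51 and 0.99 (adjusted p = 0.00159, 0.00266 and 0.0174, limma). C1rl, related to C1r, had 519.8 to 808 normalised reads in the K36M and K36I lines and in H3.1 K36R 713, against 141 to 283.5 in the other 4 lines. It did not pass the test in either comparison, with an adjusted p of 0.101 by class and a difference of 0.77 (SE 0.31, adjusted p = 0.146) by histone, both from limma. With histone as a term C1rl was not called by class either (adjusted p = 0.0555, limma). On the H3.3 libraries alone, an alternative added after the data were seen, C1rl was called by class (1.28, SE 0.22, adjusted p = 0.0108, limma). C1s, Gm5077 and C1rb were called there as well. C1rl shares no 50-base stretch with the other genes, C1s shares 21.9% with C1s2, C1rb 59.2% with C1ra and Gm5077 26.9% with C1s1.

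**Figure D3:**
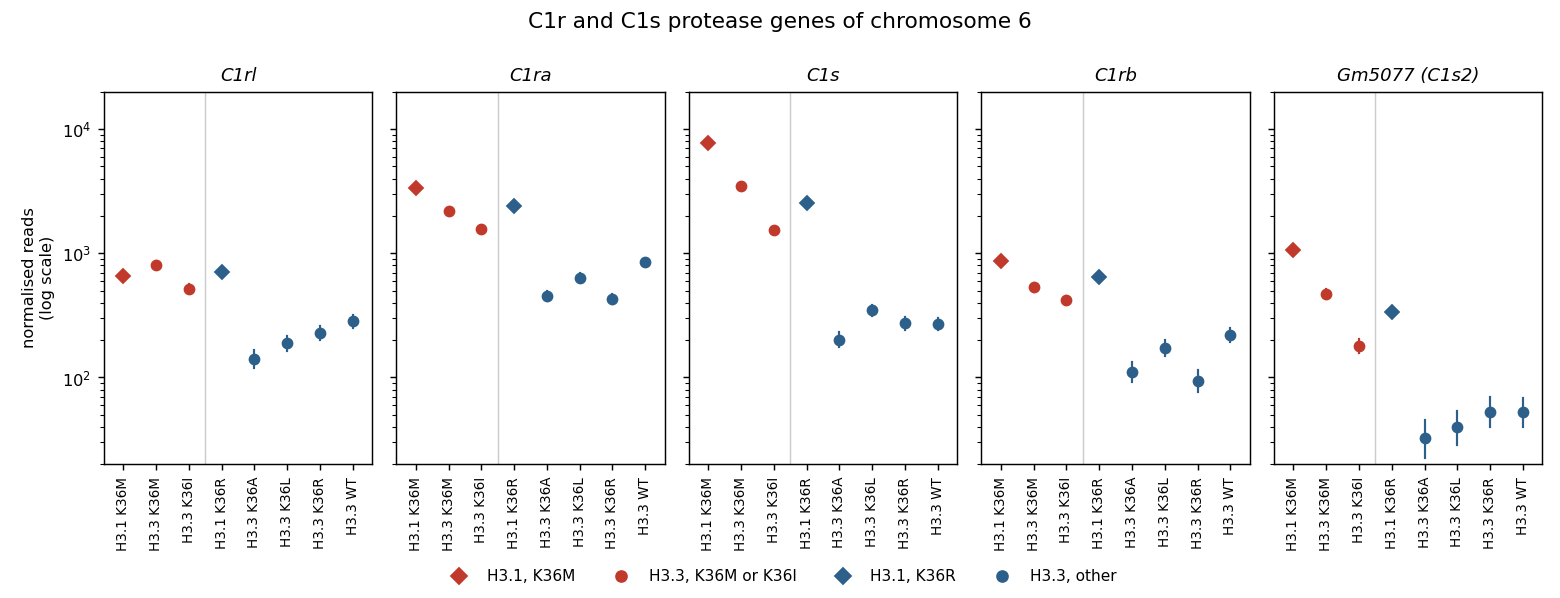
Normalised reads (y axis, log scale) of the 5 C1r and C1s protease genes of chromosome 6 in each library (x axis), in genomic order from left to right, with 95% counting intervals as bars. In each panel the 3 K36M and K36I lines (red) and H3.1 K36R (blue diamond) lie above the other 4 lines, for C1s at 1530 to 7796 against 202 to 349.

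Cfb (chr17:34856374-34862518, minus strand) encodes factor B, the catalytic part of the alternative C3 convertase. It had 251, 317 and 270.5 normalised reads in H3.1 K36M, H3.3 K36M and H3.3 K36I, against 223, 203, 216, 179 and 182 in H3.1 K36R, H3.3 K36A, K36L, K36R and WT. The class groups do not overlap, yet all neighbours in the order overlap in their counting intervals, and the class difference was 0.33 (SE 0.10). By histone it was near 0 (SE 0.11), and the values of Cfb in the 2 H3.1 lines lie inside those of the H3.3 lines. Of its 50-base stretches 73.0% also occur in Gm20547, a gene model that overlaps it on the same strand. Cfd (chr10:79890853-79892655, plus strand), the protease factor D that cleaves factor B, was near the limit of detection at 9.20, 5.73 and 1.70 normalised reads in H3.1 K36M, H3.3 K36M and H3.3 K36I, against 4.87 to 9.50 in the other 5 libraries. No difference in Cfd was detectable at this depth.

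C3ar1 (chr6:122847138-122856161, minus strand) encodes the receptor for C3a, a fragment of C3 that acts on myeloid cells. It had 74.9, 70.6 and 80.0 normalised reads in H3.1 K36M, H3.3 K36M and H3.3 K36I, against 10.9, 5.75, 3.90, 5.70 and 3.72 in H3.1 K36R, H3.3 K36A, K36L, K36R and WT. The classes do not overlap, and the 3 K36M and K36I lines lie within each other's counting intervals whichever histone they carry. Against H3.3 WT, C3ar1 was 20.2-fold higher in H3.1 K36M, 19.0-fold in H3.3 K36M and 21.5-fold in H3.3 K36I. The ratio of K36M to K36R was 6.85 in H3.1 (3.47 to 15.1) and 12.4 in H3.3 (5.43 to 34.9). Its class difference in a fit with no filter was 1.08 (SE 0.09) on the deposited scale. The summed level of the 10 leukocyte and macrophage markers was also higher in K36M and K36I lines, at 1037 to 1631 normalised reads against 437 to 845 in the other lines. In K36M and K36I lines Ptprc had 1.70 to 7.89, Laptm5 0 to 2.63, Tyrobp 0 to 1.70 and Emr1 0 to 5.26 normalised reads. In the other lines they had 0 to 3.90, 0 to 1.95, 0 and 0. Csf1r, Aif1 and Fcer1g overlapped between the classes, and none of these genes was called with no filter. Itgb2, an integrin gene from the further complement genes read below, had 23.8 to 104 against 4.75 to 15.6. It was called with no filter (adjusted p = 0.0320, limma), while Itgam and Itgax overlapped. Cd14, at 442 to 691 against 139 to 385, and Cd68, at 160 to 241 against 101 to 149, were higher in K36M and K36I lines without overlap. Neither was called by class, nor was Lyz2 (adjusted p = 0.0575, 0.0698 and 0.0690, limma), but all 3 were called with histone as a term (adjusted p = 0.0427, 0.0390 and 0.00202, limma). The 4 epithelial markers summed to 701 to 1144 normalised reads in K36M and K36I lines, against 293 to 795 in the other lines. Nearly all of it was Cdh1, which was not called by class (0.69, SE 0.26, adjusted p = 0.120, limma). Krt8, below the filter, had 13.1 to 76.6 in K36M and K36I lines, against 1.90 to 14.9 in the other lines, and was called with no filter (adjusted p = 0.0457, limma), while Epcam had at most 2.19 in any library. The part of other cells in the C3ar1 level was not tested, and more cells with the receptor and more receptor RNA per cell cannot be told apart in bulk RNA.

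Cd55 (chr1:130439027-130462744, minus strand) encodes the membrane protein that speeds the decay of C3 convertases. It had 364, 344 and 305 normalised reads in H3.1 K36M, H3.3 K36M and H3.3 K36I, against 65.6, 292, 592, 324 and 30.7 in H3.1 K36R, H3.3 K36A, K36L, K36R and WT. Cd55 was thus low in H3.3 WT and H3.1 K36R and higher in the other 6 lines, a division that follows neither class nor histone. Its fitted differences were 0.57 (SE 0.53) by class and -0.54 (SE 0.59) by histone, the second of which turned to 0.13 without H3.1 K36R. Against H3.3 WT it was 2.14-fold higher in H3.1 K36R and 9.53-fold to 19.3-fold higher in the other mutants. K36M exceeded K36R 5.55-fold in H3.1 (4.18 to 7.46), while in H3.3 the ratio was 1.06 (0.91 to 1.23). With 1 library of H3.3 WT, a low value of that library and a difference of the mutants cannot be told apart. Cav1, Cers4 and Hmga2 were most like Cd55 in profile, at 0.50, 0.51 and 0.51. Exons of Cd55 overlap Gm16083 on the opposite strand, and 8.00% of its 50-base stretches occur in Cd55b, named Daf2 in the table and at 0 to 17.5 normalised reads.

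Cd59a (chr2:104095801-104115354, plus strand) encodes an inhibitor of the membrane attack complex. It had 586 and 646 normalised reads in H3.1 K36M and H3.1 K36R, and 264, 309 and 399 as the lowest, median and highest of the H3.3 lines. The groups do not overlap, and the counting intervals of the 2 H3.1 lines overlap each other. The ratio of H3.1 to H3.3 was 1.87 for K36M (1.62 to 2.16) and 1.68 for K36R (1.48 to 1.91), with a fitted difference of 0.76 (SE 0.14). Dbp, Fam110b and Ppm1k were most like it in profile, at 0.09, 0.10 and 0.11. Cd59b shares 3.87% of the 50-base stretches of Cd59a.

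Serping1 (chr2:84765387-84775444, minus strand) encodes the C1 inhibitor, which inactivates C1r and C1s. It had 160, 89.7 and 52.7 normalised reads in H3.1 K36M, H3.3 K36M and H3.3 K36I, against 45.9, 113, 177, 186 and 102 in H3.1 K36R, H3.3 K36A, K36L, K36R and WT. The groups overlap in both comparisons, with differences of -0.17 (SE 0.27) by class and -0.14 (SE 0.31) by histone. Between K36M and K36R it went opposite ways: the ratio was 3.49 in H3.1 (2.44 to 5.08) and 0.482 in H3.3 (0.373 to 0.619). No second library allows a test of that difference. Gata2, Nbl1 and Rassf3 were most like Serping1, at 0.14, 0.19 and 0.19.

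In the histone comparison 4 of the 7 members past the filter were called higher (C3, C4b, C1ra and Cd59a), where 5.65% of all genes were called higher at an adjusted p under 0.05, and 0 were called lower, where 5.37% were (0 at an unadjusted p under 0.05 in that direction as well). In the class comparison 0 of 7 were called by limma or by voom, where 13.3% of all genes were called in either direction, and 2 had an unadjusted p under 0.05. Groups did not overlap for C3, C4b, C1ra and Cd59a by histone, where 10.4% of all genes were higher without overlap, and for Cfb by class, where 10.0% were, beside C3ar1 below the filter. With histone as a term the class comparison called C1ra (20.8% of all genes called), on the H3.3 libraries alone C1ra and Cfb (17.9%), and with no filter C3ar1 (11.0%). Fitted on the K36M and K36R libraries alone, with substitution as a term, the histone difference of C3 was 6.79 (SE 0.13), and C3 was the member called (0.0844% of all genes called). These values chose the members, so the calls are a description of them, test nothing, and nothing is read from the counts.

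Each mutant was set against H3.3 WT with 1 library a side. Shares of all genes here are of those past the filter, so they leave out C3ar1 and Cfd. Members at least 1 higher on the deposited log2 scale were C3, C1ra, Cd55 and C3ar1 in H3.1 K36M (6.08% of all genes higher, 4.23% lower). They were C1ra, Cd55 and C3ar1 in H3.3 K36M (4.28% of all genes higher, 4.41% lower), Cd55 and C3ar1 in H3.3 K36I (3.45% and 4.17%) and C3, C4b and C1ra in H3.1 K36R (2.08% and 1.25%). The one such member was Cd55 in H3.3 K36A (0.76% and 1.32%), H3.3 K36L (0.521% and 0.507%) and H3.3 K36R (1.06% and 0.696%). No member was at least 1 lower on that scale in any of the 7 mutants, and the scale understates changes of genes with few reads. On log2 of reads plus 1, C3 in H3.3 K36I, Serping1 in H3.1 K36R and Cfd, near the limit of detection, in H3.3 K36I were at least 1 lower. C4b in H3.1 K36M, C3 in H3.3 K36A and H3.3 K36R, and C3ar1 and Cd55 in H3.1 K36R were then at least 1 higher. Between K36M and K36R in H3.1, Cd55 alone differed by at least 1 on the deposited scale (7.02% of all genes, either direction). In H3.3, C1ra and C3ar1 did (7.85%). The ratios of reads given above were past that size also for C3ar1 and Serping1 in H3.1, and for C3 and Serping1 in H3.3.

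Beyond the 9 members, a list of 49 complement genes was read, of which 48 were in the table and 17 passed the filter. The class comparison called 4 of the 17 higher, where 6.45% of all genes were, and 1 lower, where 6.82% were. Besides C1s these were Fcna, a ficolin of the lectin pathway, Cd93, a receptor once linked to C1q, and Cr1l, a membrane regulator of C3 convertases. Fcna had 82.8, 207 and 202 normalised reads in H3.1 K36M, H3.3 K36M and H3.3 K36I, against 20.9 to 38.0 in the other 5 lines, without overlap (difference 1.14, SE 0.18, adjusted p = 0.00542, limma). Cd93 had 192, 186 and 71.5 in H3.1 K36M, H3.3 K36M and H3.3 K36I, against 17.1 to 51.4 in the other lines (1.07, SE 0.21, adjusted p = 0.0109, limma). Cr1l rose by 0.28 (SE 0.07, adjusted p = 0.0413, limma). Colec10, a collectin of the lectin pathway, fell by 3.37 (SE 0.83, adjusted p = 0.0296, limma), with 110, 138 and 37.4 normalised reads in H3.1 K36M, H3.3 K36M and H3.3 K36I, against 1987, 320, 958, 7622 and 3930 in H3.1 K36R, H3.3 K36A, K36L, K36R and WT. Its 3 K36M and K36I lines lie below all others, yet it was not called by voom. The median difference over the 17 was 0.28, against -0.01 over all genes. Without H3.1 K36M or H3.3 WT 2 of the 17 were called, without H3.3 K36M 1, and without H3.3 K36L or H3.3 K36R 3.

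The histone comparison called 4 of the 17 higher and 0 lower, with limma as with voom (1 lower at an unadjusted p under 0.05, Fcna). Of all genes, limma called 5.65% higher and 5.37% lower. Besides C1s, Gm5077 and C1rb this was Clu, clusterin, an inhibitor of the terminal complex, which rose by 0.96 (SE 0.17, adjusted p = 0.0175, limma). Clu had 1890 and 4423 normalised reads in H3.1 K36M and H3.1 K36R, against 826 and 1986.5 in H3.3 K36M and H3.3 K36R. It was lower with K36M than with K36R in both histones, as C3 was, and its groups overlap over all 8 lines. The median difference was 0.17, against 0.00 over all genes. Without H3.1 K36M only 1 of the 17 was called higher. Without H3.1 K36R none of these 4 was called, with 0 higher and 1 lower of the 17, and on the K36M and K36R libraries alone 0 were called (7 at an unadjusted p under 0.05). Of all genes, 0.0844% were called on the K36M and K36R libraries alone. Masp1, a protease of the lectin pathway, had 18692 and 24861 normalised reads in H3.1 K36M and H3.1 K36R, against 6442 to 16935 in the H3.3 lines, without overlap. Its histone difference of 1.17 (SE 0.33) did not pass (adjusted p = 0.0570, limma), and it was not called by class.

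**Figure D4:**
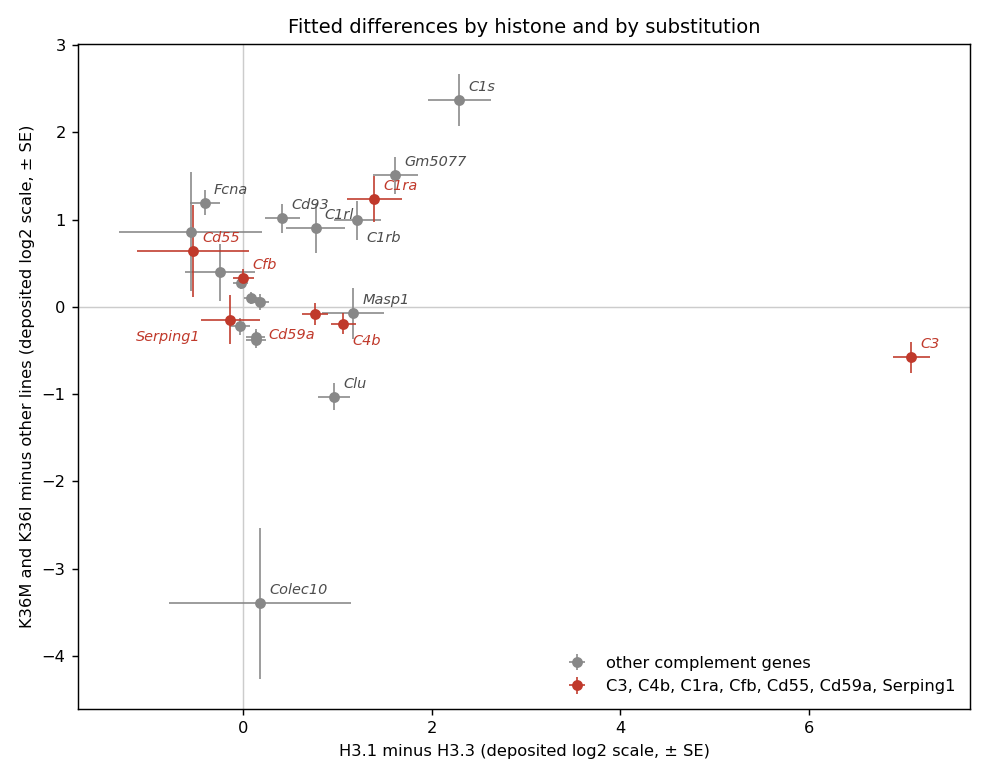
Fitted H3.1 minus H3.3 differences (x axis) and K36M and K36I minus other lines (y axis), both on the deposited log2 scale with SE bars and from 1 fit with both terms, for the 7 members past the filter (red) and the 17 other complement genes (grey). C3 lies far to the right at 7.09, C1ra lies with C1s, Gm5077 and C1rb at upper right, and Colec10 lies lowest.

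Of the wider list 31 genes did not pass the filter, and 7 of them had 0 reads in all libraries, among them C1qa, C1qb and C1qc, whose products form C1q. Among those below it, chosen for mention after their values were seen, Hc, the gene of C5, had 76.2, 62.0 and 57.8 normalised reads in H3.1 K36M, H3.3 K36M and H3.3 K36I, against 5.70 to 13.6 in the other lines. Csmd1, a membrane regulator, had 250 normalised reads in H3.1 K36R and at most 9.50 in any other line. C4bp, the C4b-binding protein gene, had 42.1 and 19.1 in H3.1 K36M and H3.3 K36M, and at most 4.37 in any other line.

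A second list held 17 cytokines, receptors and transcription factors known in general to drive complement transcription, and 13 of them passed the filter. In the histone comparison 8 of the 13 rose and 0 fell, with limma as with voom (0 lower at an unadjusted p under 0.05). Of all genes, limma called 5.65% higher and 5.37% lower. The median difference over the 13 was 0.42, against 0.00 over all genes. Without H3.1 K36M 4 were called, without H3.1 K36R 5, and on the K36M and K36R libraries alone 0 (8 at an unadjusted p under 0.05). Only 0.0844% of all genes were called on the K36M and K36R libraries alone. Named here after their values were seen, Il6, the cytokine that drives the acute phase response, rose by 2.18 (SE 0.25, adjusted p = 0.00407, limma), and Cebpd, a C/EBP factor, by 1.60 (SE 0.10, adjusted p = 0.000435, limma). Il6 had 647 and 719 normalised reads in H3.1 K36M and H3.1 K36R, against 22.1 to 178.5 in the H3.3 lines. Cebpd had 2918 and 6910 in H3.1 K36M and H3.1 K36R, against 750 to 2373 in the H3.3 lines. In the same comparison the summed leukocyte and macrophage markers stood at 845 to 1631 normalised reads in H3.1 lines and 437 to 1083 in H3.3 lines. Of those past the filter, Lyz2, a lysozyme of myeloid cells, rose by 0.78 (SE 0.11, adjusted p = 0.00742, limma). It was not called on the K36M and K36R libraries alone (adjusted p = 0.225, limma). Cd14 at 0.37 and Cd68 at -0.17 were not called by histone (adjusted p = 0.328 and 0.438, limma). The part of these genes in the C3 level was not tested. In the class comparison Lif, a cytokine of the IL-6 family, rose by 1.71 and Stat3 fell by 0.53 (adjusted p = 0.000749 and 0.0236, limma), and the other 11 were not called. Of all genes, 6.45% were called higher by class and 6.82% lower.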

How the data were processed

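Total RNA came from a Trizol extraction and went into TruSeq libraries, as the labels' protocols state. For the reads, the tools named in the submitters' processing notes are featureCounts 1.4.4, STAR 2.3.0e, Trimmomatic 0.32 and DESeq2, with mm10 as the build. Not given in the sources used here are step order, settings, annotation and strand use. The authors deposited log2 values, made from reads per gene over a size factor by a variance-stabilising transformation, with no length correction. The lowest value, 5.95, stands for 0 reads, and inverting the transformation gave whole reads for 100% of values within 0.001 reads (largest deviation 1.51e-07), from which depth and normalised reads were computed. A count of 0 allows up to 3 reads, 4.41e-06% to 6.60e-06% of a library. Counting intervals are exact and cover counting error only.

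Genes with a mean at least 1 above the lowest value entered the fits, which kept 14215 and left out 17061. Fits on all 8 libraries were made in R 4.3.3 by limma 3.58.1 with its trend option, two-sided, with Benjamini-Hochberg adjustment over all 14215 genes at 0.05. With class as the sole term they gave the class comparison, and with class and histone the histone comparison. With 1 library a side, a difference of at least 1 on the deposited log2 scale was counted. The spread behind each p-value is that among lines, which may be technical in part.

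The members, gene lists and tests were chosen with earlier results of these data known. Named are the 9 members, called genes of the wider list, and for members spanning at least 1 on the log2 scale the 3 genes nearest in profile, without predicted genes, cDNA clones or genes of small RNAs. Other named genes were chosen after their values were seen. Gene positions and exon lengths are those of GENCODE M21 (GRCm38, which mm10 names), and shared sequence was measured as the percent of 50-base stretches of a gene's transcripts found in another gene's. Promoters are from RefSeq. On simulated data with 100 genes of each size changed among 14215, 100% of planted log2 differences of 1 and 100% of those of 2 were called by class, and 99% and 100% by histone. The fits called 13 and 10 of 14015 unchanged genes, by class and by histone. The changed genes were drawn from those above a set mean level, and scatter between lines had a single set value for all genes. These shares therefore do not give the power in the real data, where scatter differs by gene. In the real class comparison Gm5077 at 1.72 (SE 0.53) and C1rb at 1.16 (SE 0.42) were not called. Alternatives covered the filter, the pseudocount, the scaling, voom on recovered reads, subsets of libraries and leaving out each library.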

Additional observations from a re-analysis of the deposited data

Results flagged for a closer look

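Single lines were compared with the rest of their group by the gap to the nearest line over the range of the group, with Dixon's 95% value as the limit, in 34 groups over 17 genes. Chance passes that limit in about 1 of 20 groups, and 5 lines passed it. The members were chosen by these values and the other genes named for their calls on them, so the gaps describe the lines and test nothing, and C1s and Gm5077 share sequence. H3.1 K36R was far above the other lines without K36M or K36I for 4 genes: C3 at 25410 normalised reads (gap over range 0.902), C4b at 240.5 (0.802), C1s at 2523 (0.816) and Gm5077 at 336.7 (0.854). That line is the one with H3.1 among those 5. For Cd55 the low line was H3.3 WT among the 6 H3.3 lines, at 30.67 normalised reads (0.681). Fitted without H3.3 WT, the class difference of Cd55 was 0.25 in place of 0.57 and its histone difference -0.78 in place of -0.54. The cause of these gaps was not tested.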

How the results depend on the processing

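No paired analysis was possible because the labels give each transgene 1 library and so no replicate numbers to share, beside the fit on the K36M and K36R libraries, which pairs the histones by substitution. No difference changed its direction where it was called. The count of the wider complement list called by class was 5 (13.3% of all genes called). It became 3 with a filter at a mean of 2, 8 with no filter (11.0%) and 1 to 6 with a library left out. With histone as a term it was 10, 6 higher and 4 lower (20.8% of all genes). The 4 lower were C4a, Colec10, Clu at -1.03 (adjusted p = 0.00341, limma) and Cd46 at -0.34 (adjusted p = 0.0340, limma). The count of members called by class was 0, and became 1 with no filter, 1 with library medians set equal, 1 with histone as a term, 2 on the H3.3 libraries alone (an alternative added after the data were seen) and 0 to 1 with a library left out. By histone, 4 of the wider list were called, 0 on the K36M and K36R libraries alone (7 at an unadjusted p under 0.05) and 1 to 5 with a library left out, where the 1 without H3.1 K36R was lower and 0 were higher. The 4 members called became 1 on those 4 libraries and 2 to 4 with a library left out, 2 without H3.1 K36M, H3.1 K36R or H3.3 K36I. The fit on the K36M and K36R libraries alone called 0.0844% of all genes by histone. Where an H3.1 library was left out, the lone H3.1 line was assumed to vary like the others. Differences of at least 1 from H3.3 WT numbered 15 of 63, and 23 on log2 of reads plus 1. Over 16 alternatives of the class comparison Cr1l was lost in 9, Colec10 in 7 and C1s in 6. Fcna was called in the 15 that tested it, and Cd93 was lost in 1 of its 15, as neither passed a filter at a mean of 2. Depth limits Cfd, at 1.70 to 9.50 normalised reads.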
